A study of Mus musculus with 2 samples.

Results

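RNAseq of SOX2-GFP sorted lingual cells was examined for 10 genes of the epidermal growth factor (EGF) family, chosen by name from the 21628 entries of the deposited expression table. They comprise the receptor genes *Egfr* and *Erbb2*, the ligand genes *Areg*, *Ereg*, *Hbegf*, *Tgfa*, *Btc*, *Epgn* and *Nrg1*, and *Lrig1*, which encodes an inhibitor of the receptors. All 10 were found, each as a single entry with a number in both populations. The samples were 1 library of GFPhigh cells and 1 library of GFPlow cells, each from about 100000 cells sorted from lingual epithelium of P0 pups. Both populations carried the same Sox2GFP genotype and came from pooled epithelium. The genotype reports *Sox2* activity by its fluorescence, and the populations were sorted by its brightness. *Sox2* itself had 112 FPKM (fragments per kilobase of transcript, relative to the number of mapped fragments) in GFPhigh cells and 59.0 FPKM in GFPlow cells. Because each population has 1 library, no difference given here has a replicate check, an error or a p-value.

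EGF family ligands are made as membrane-anchored precursors, and metalloproteases of the ADAM family release them from the cell surface. Each ligand carries an EGF-like domain held together by cysteine pairs, which binds EGFR or its relatives ERBB3 and ERBB4. ERBB2 has no known ligand of its own and acts as the preferred dimer partner of the others, and the active receptors signal through the Ras-MAPK and PI3K cascades. In stratified epithelia the pathway drives keratinocyte growth and migration, and in the embryonic tongue EGF signaling is known to limit where fungiform papillae form.

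The coding sequence of the EGF-like domain is shown first, because it is what makes these ligands members of 1 family. It was searched for in the GENCODE M21 transcripts as 6 cysteine codons at the spacing of the family, and found in all 7 ligand genes. That of *Hbegf*, codons 108 to 143 of 208, is not printed or aligned here. Sequences run 5′ to 3′ with the cysteine codons in capitals, and *Nrg1* has 2 forms that differ at the end of the domain.
Areg: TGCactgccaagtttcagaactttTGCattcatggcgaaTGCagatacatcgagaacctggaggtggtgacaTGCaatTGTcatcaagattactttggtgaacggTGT
Btc: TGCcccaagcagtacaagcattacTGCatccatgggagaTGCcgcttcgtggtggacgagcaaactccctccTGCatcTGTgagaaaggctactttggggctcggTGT
Tgfa: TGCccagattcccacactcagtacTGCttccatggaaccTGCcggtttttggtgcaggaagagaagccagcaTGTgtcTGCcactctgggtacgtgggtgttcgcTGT
Epgn: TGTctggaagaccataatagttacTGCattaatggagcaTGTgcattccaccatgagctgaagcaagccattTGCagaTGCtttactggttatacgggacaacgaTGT
Ereg: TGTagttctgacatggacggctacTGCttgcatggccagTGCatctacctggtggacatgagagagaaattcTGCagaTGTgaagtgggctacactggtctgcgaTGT
Nrg1, first form: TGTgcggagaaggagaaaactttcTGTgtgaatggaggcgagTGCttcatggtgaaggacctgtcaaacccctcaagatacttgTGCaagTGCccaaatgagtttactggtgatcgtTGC
Nrg1, second form: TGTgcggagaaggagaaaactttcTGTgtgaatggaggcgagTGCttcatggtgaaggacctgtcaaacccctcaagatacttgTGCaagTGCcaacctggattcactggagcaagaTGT

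In *Areg*, *Btc*, *Tgfa*, *Epgn*, *Ereg* and *Hbegf* the stretch was 36 codons (108 bases) long, and in the first 5 of these 7, 4, 10, 1 and 8 codons lay between successive cysteines. *Nrg1*, a ligand of ERBB3 and ERBB4, had 40 codons with 5 instead of 4 in the second gap and 13 instead of 10 in the third. The stretch covered codons 139 to 174 of 248 in *Areg*, 69 to 104 of 177 in *Btc* and 46 to 81 of 159 in *Tgfa*. Among the 6 ligands aligned on the cysteines, *Btc* and *Tgfa* were the most alike pair, with 67 of 108 bases identical (62.04%), and *Areg* and *Btc* shared 62 of 108 (57.4%). *Areg* and *Tgfa* shared 51 of 108 bases (47.2%). In the expression ratios given next, *Areg* and *Btc* stood on one side and *Tgfa* on the other.

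Of the 10 genes, *Areg* and *Hbegf* were enriched in GFPhigh cells and none was enriched in GFPlow cells. A gene was called enriched in the population where its level was higher if that level reached 5 FPKM and was at least 1.5 times the other. By this rule 5.9% of the 17283 genes compared were called in GFPhigh cells and 5.54% in GFPlow cells. Genes under 5 FPKM in both populations cannot be called, and 8 of the 10 members reached 5 FPKM in at least 1 population. Of the 10760 compared genes at that level, 1020 were called in GFPhigh cells and 958 in GFPlow cells. The study's methods word the minimum for each sample, and with 5 FPKM required in both populations the same 2 members were called. Of the 17283 genes, 4.5% were then called in GFPhigh cells and 3.66% in GFPlow cells. Only 10016 genes, 8 of the members among them, reached 5 FPKM in both and could be called. Of these 10016, 777 were called in GFPhigh cells and 633 in GFPlow cells. FPKM were higher in GFPhigh cells for 7 of the 10 genes and higher in GFPlow cells for *Tgfa*, *Epgn* and *Nrg1*. As log2(FPKM + 1), a scale that shrinks differences between low values, the median difference of GFPhigh minus GFPlow was 0.36 over the 10 genes and −0.02 over all genes compared. Of the 10758 genes that were above 0 in both populations and at 5 FPKM or more in at least 1, 44.6% had a ratio above 1, and this set served to place the ratio of each gene.

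**Figure D1:**
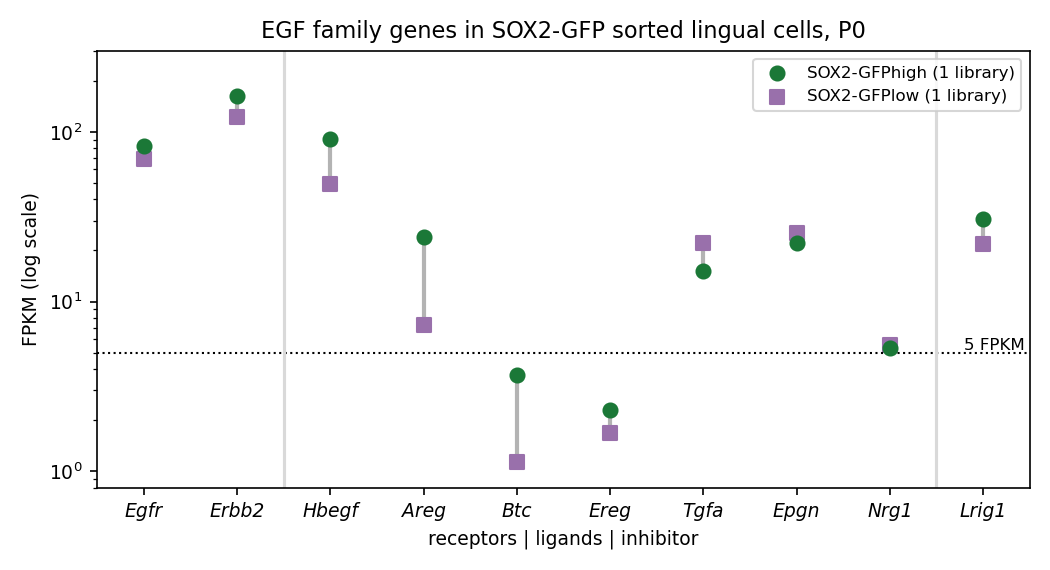
FPKM of the 10 EGF family genes on a log scale, with 1 point per library (circles, GFPhigh; squares, GFPlow) joined by a line, and the 5 FPKM minimum dotted. *Areg*, *Btc* and *Hbegf* are the ligands with the widest gaps in favor of GFPhigh cells, *Tgfa* is higher in GFPlow cells, and *Btc* and *Ereg* lie under 5 FPKM in both.

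*Areg* encodes amphiregulin, an EGFR ligand made by keratinocytes. *Areg* (ENSMUSG00000029378, mm10, chr5:91139599-91148432, plus strand) had 24.1 FPKM in GFPhigh cells and 7.31 FPKM in GFPlow cells. The ratio of 3.30 was the largest of the 10 genes and above that of 98.7% of the genes of the reference set. It also passed a 2-fold rule, as did 2.59% of genes in GFPhigh cells, with 2.7% in GFPlow cells.

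*Hbegf* encodes heparin-binding EGF-like growth factor, which is quickly induced in epithelia by stress and wounding. *Hbegf* (ENSMUSG00000024486, chr18:36504927-36515805, minus strand) had 90.1 FPKM in GFPhigh cells and 49.2 FPKM in GFPlow cells, a ratio of 1.83. It was the most highly expressed ligand in both populations.

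Genes that respond to tissue dissociation were highly expressed in both libraries. Over 9 such genes (*Fosb*, *Jun*, *Junb*, *Atf3*, *Dusp1*, *Zfp36*, *Nr4a1*, *Hspa1a* and *Hspa1b*), FPKM ranged from 418 to 1345 in GFPhigh cells and from 422 to 901 in GFPlow cells. Of these, 8 were higher in GFPhigh cells and 1, *Atf3*, passed the rule (1345 and 863 FPKM, ratio 1.56). All 9 were above 5 FPKM, and of the 10760 compared genes at that level in at least 1 population, 1020 were called in GFPhigh cells and 958 in GFPlow cells. Of the reference set, 44.6% had a ratio above 1. Summed over the 9 genes, the level was 7240 FPKM in GFPhigh cells and 5681 in GFPlow cells. Early response genes counted below as ERK-responsive were left out of this list. *Fos* was level (2589 and 2588 FPKM), and *Egr1* (1314 and 1972) and *Ier2* (482 and 604) were higher in GFPlow cells. *Fosl1* (103 and 47.2), *Ier3* (118 and 89.1) and *Myc* (160 and 149) were higher in GFPhigh cells. The direction of the 9 genes therefore does not hold for every early response gene. The part of the dissociation response in the ratios of *Hbegf* and *Areg* was not tested.

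Betacellulin, the product of *Btc*, binds both EGFR and ERBB4. *Btc* (ENSMUSG00000082361, chr5:91357261-91402994, minus strand) had 3.67 FPKM in GFPhigh cells and 1.14 FPKM in GFPlow cells. Its ratio, 3.22, was close to that of *Areg*, but its level stayed under 5 FPKM, so it was not called. With 1 FPKM as the minimum it was called, and 8.92% of genes then passed in GFPhigh cells and 9.04% in GFPlow cells. Epiregulin, encoded by *Ereg* (ENSMUSG00000029377, chr5:91074622-91093646, plus strand), was the lowest ligand in GFPhigh cells, with 2.31 FPKM against 1.68 FPKM in GFPlow cells, a ratio of 1.38.

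Transforming growth factor alpha, an EGFR ligand with a long-known role in hair and skin, is encoded by *Tgfa*. *Tgfa* (ENSMUSG00000029999, chr6:86195223-86275719, plus strand) had 15.2 FPKM in GFPhigh cells and 22.0 FPKM in GFPlow cells. At 1.44-fold higher in GFPlow cells it fell just short of the rule, and 10.1% of the reference set had a lower ratio of GFPhigh over GFPlow. On the TPM scale, in which FPKM are divided by their library total, *Tgfa* passed, with a ratio of GFPhigh over GFPlow of 0.647, and 4.67% of genes were then called in GFPhigh cells and 7.05% in GFPlow cells. Beside this, the basal keratinocyte markers were higher in GFPlow cells, mostly within the 1.5-fold limit. All 7 genes of a list that held *Krt14*, *Krt5*, *Krt15*, *Itga6*, *Itgb4*, *Trp63* and *Col17a1* were higher in GFPlow cells, 1 of them (*Itgb4*, 424 and 664 FPKM) by the rule, and their summed FPKM was 25796 in GFPhigh cells and 32952 in GFPlow cells. Their part in the *Tgfa* ratio was not tested.

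*Epgn* (epigen, an EGFR ligand; ENSMUSG00000035020, chr5:91027464-91035215, plus strand) had 22.2 FPKM in GFPhigh cells and 25.3 FPKM in GFPlow cells. Its ratio was 0.877, and 31.4% of the reference set had a lower one. *Nrg1* (neuregulin 1; ENSMUSG00000062991, chr8:31814551-32884029, minus strand) was at nearly the same level in both populations, 5.36 and 5.58 FPKM, and its ratio of 0.961 lay at percentile 48.2 of the reference set. Both *Nrg1* values were just above 5 FPKM, and they sum over the 18 transcripts annotated for the gene, including the 2 forms of the EGF-like domain shown above.

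**Figure D2:**
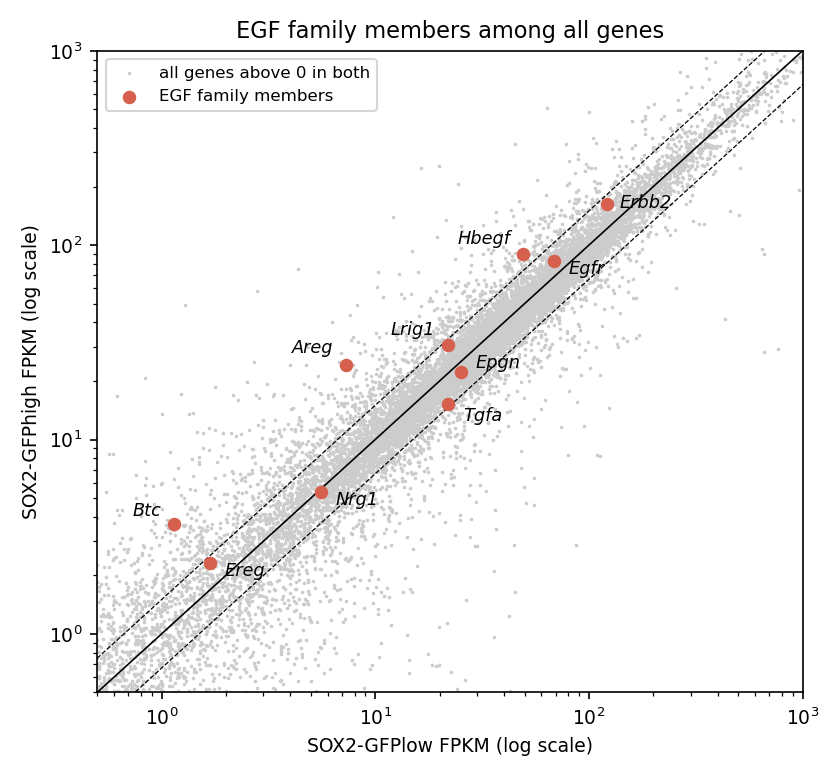
FPKM in GFPhigh cells against FPKM in GFPlow cells, both on log scales, for all genes above 0 in both libraries (gray) and the 10 EGF family genes (red), with the line of equal levels and, dashed, the 1.5-fold limits. *Areg*, *Btc* and *Hbegf* lie above the upper limit, *Tgfa* lies at the inner edge of the lower limit, and the others lie between the limits.

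The make-up of ligand transcripts therefore differed between the populations. Summed over the 7 ligands, FPKM were 163 in GFPhigh cells and 112 in GFPlow cells. *Hbegf* made up 55.3% of this sum in GFPhigh cells and 43.9% in GFPlow cells. *Areg* made up 14.8% and 6.52%, while *Tgfa* made up 9.35% and 19.6% and *Epgn* 13.6% and 22.5%. The sum was larger in GFPhigh cells, so a ligand at an equal level in both has a smaller share there. *Epgn*, with a ratio of 0.877, was thus lower by less than its share shows. *Nrg1*, with a ratio of 0.961, made up 3.29% and 4.98%. In GFPhigh cells *Tgfa* was at 0.632 times the FPKM of *Areg*, and in GFPlow cells at 3.01 times. By FPKM the order of *Areg* and *Tgfa* was thus reversed, with 1 library per population. In GFPhigh cells *Epgn* lay between them, at 1.09-fold below *Areg* and 1.45-fold above *Tgfa*. FPKM are scaled by transcript length, so that levels of different genes can be set side by side within a library.

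Both receptors were expressed at higher levels than every ligand, except that *Egfr* and *Hbegf* were not separated. *Erbb2* (ENSMUSG00000062312, chr11:98412470-98437716, plus strand) was the highest of the 10 genes in both populations, with 162 FPKM in GFPhigh cells and 121 FPKM in GFPlow cells, a ratio of 1.34 that lay at percentile 86.3. *Egfr* (ENSMUSG00000020122, chr11:16752203-16918158, plus strand) had 82.7 FPKM in GFPhigh cells and 68.9 FPKM in GFPlow cells, a ratio of 1.20 at percentile 79.2. Neither receptor passed the rule. *Erbb2* was at 1.96 times the FPKM of *Egfr* in GFPhigh cells and 1.76 times in GFPlow cells.

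Of the receptors outside the set, *Erbb3*, which binds neuregulins and has little kinase activity, had 60.3 FPKM in GFPhigh cells and 66.9 FPKM in GFPlow cells. *Erbb4* was at 0.02 FPKM in both. Transcripts of 3 of the ERBB receptors were thus well detected in both populations, while *Erbb4* was near the limit of detection.

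*Lrig1*, which promotes the degradation of ERBB receptors and marks quiescent stem cells in skin, had 30.6 FPKM in GFPhigh cells and 21.9 FPKM in GFPlow cells (ENSMUSG00000030029, chr6:94604529-94700158, minus strand). The ratio was 1.40, at percentile 88.3 and under the rule. *Egfr* was at 2.70 times the FPKM of *Lrig1* in GFPhigh cells and 3.15 times in GFPlow cells. Of the relatives of *Lrig1*, *Lrig3* had 62.9 and 92.6 FPKM, 1.47-fold higher in GFPlow cells, and *Lrig2* had 10.7 and 10.2 FPKM.

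Within GFPhigh cells the order of levels was *Erbb2*, *Hbegf*, *Egfr*, *Lrig1*, *Areg*, *Epgn*, *Tgfa*, *Nrg1*, *Btc* and *Ereg*. With no replicates to give a spread, neighbors less than 1.5-fold apart were taken as not told apart. On this basis *Hbegf* and *Egfr* (1.09-fold) were not separated, nor were neighbors from *Lrig1* to *Tgfa* (1.09-fold to 1.45-fold), nor *Nrg1* and *Btc* (1.46-fold). Within GFPlow cells *Erbb2* was again first, followed by *Egfr*, *Hbegf*, *Epgn*, *Tgfa*, *Lrig1*, *Areg*, *Nrg1*, *Ereg* and *Btc*. There *Egfr* and *Hbegf* (1.40-fold), *Epgn*, *Tgfa* and *Lrig1* (1.01-fold to 1.15-fold), *Areg* and *Nrg1* (1.31-fold), and *Ereg* and *Btc* (1.47-fold) were not separated.

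The genes *Epgn*, *Ereg*, *Areg* and *Btc* lie side by side within 376 kb of chromosome 5, with no other protein-coding gene between them in the annotation. Their ratios of GFPhigh over GFPlow along the locus were 0.877 for *Epgn*, 1.38 for *Ereg*, 3.30 for *Areg* and 3.22 for *Btc*. *Areg* and *Btc* thus had close ratios at different levels, while *Epgn* and *Areg* had close levels in GFPhigh cells at different ratios. *Epgn* and *Ereg* are 39.4 kb apart, and the FPKM of *Epgn* was higher than that of *Ereg* in both libraries. *Ereg* and *Areg* are 46.0 kb apart. *Btc*, on the opposite strand, is 209 kb from *Areg*.

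**Figure D3:**
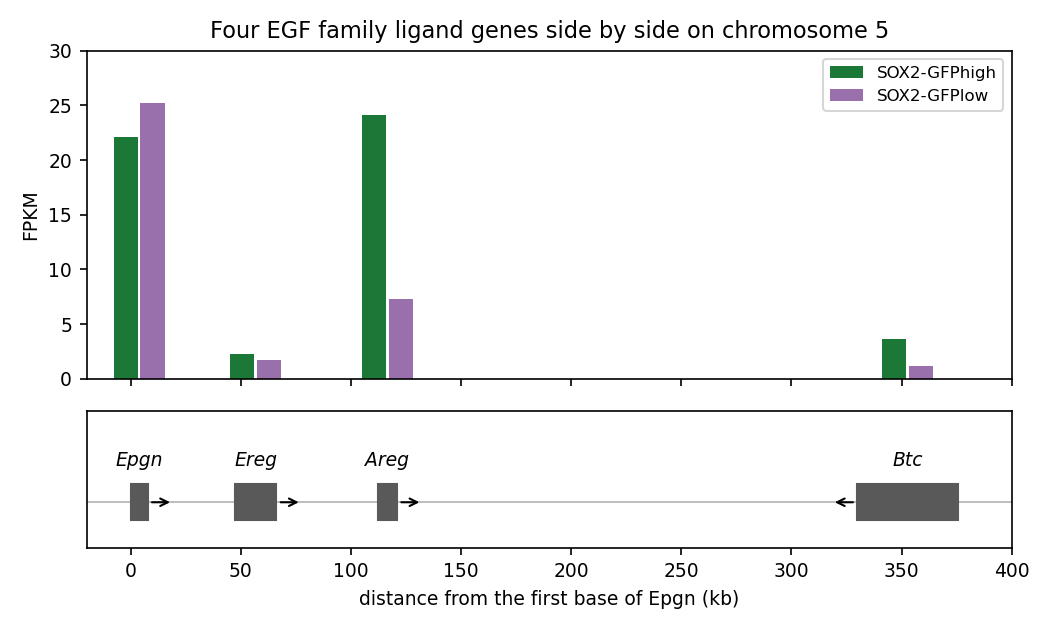
FPKM of the ligand genes on chromosome 5 in GFPhigh and GFPlow cells (top; 1 library each, no error bars) above their positions in kb from the first base of *Epgn*, with arrows for the direction of transcription (bottom). *Epgn*, at the left, is nearly level between the populations, while *Areg* and *Btc* are higher in GFPhigh cells.

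The bases just upstream of the start sites are shown for *Areg* and *Btc*, the ligands with the largest ratios, and for *Tgfa*, the ligand furthest on the other side. Each is the 250 bases before the RefSeq start (GRCm38.p6, the mm10 assembly), with letters matching a searched motif in capitals. The motifs, searched on both strands, were the cAMP response element TGACGTCA, an AP-1 site TGANTCA, the TATA box TATAAA, a GC box GGGCGG and a SOX-type site AACAANG.
Areg, chr5:91139349-91139598, plus strand: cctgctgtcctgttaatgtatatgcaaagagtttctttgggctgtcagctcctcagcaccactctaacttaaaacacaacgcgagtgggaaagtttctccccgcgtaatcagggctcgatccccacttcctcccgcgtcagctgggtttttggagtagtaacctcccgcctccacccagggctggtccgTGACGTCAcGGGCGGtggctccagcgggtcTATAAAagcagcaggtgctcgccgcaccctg
Btc, chr5:91402995-91403244, minus strand: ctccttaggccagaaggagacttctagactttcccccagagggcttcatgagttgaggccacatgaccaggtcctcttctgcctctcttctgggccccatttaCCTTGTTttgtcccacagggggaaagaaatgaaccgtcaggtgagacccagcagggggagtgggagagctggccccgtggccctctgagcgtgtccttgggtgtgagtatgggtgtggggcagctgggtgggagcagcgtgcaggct
Tgfa, chr6:86194972-86195221, plus strand: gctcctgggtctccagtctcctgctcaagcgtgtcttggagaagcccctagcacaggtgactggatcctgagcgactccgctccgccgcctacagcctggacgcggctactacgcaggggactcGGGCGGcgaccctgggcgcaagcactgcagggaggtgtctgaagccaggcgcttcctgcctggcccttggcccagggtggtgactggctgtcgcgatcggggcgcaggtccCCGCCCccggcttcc

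The *Areg* sequence held TGACGTCA at bases −61 to −54, a GC box at −52 to −47 and a TATA box at −31 to −26, counted back from the start. The cAMP response element occurs in 1.55% and the TATA box in 12.4% of the 32851 upstream sequences of this length. The *Btc* sequence held a SOX-type site at −147 to −141, written CCTTGTT on the strand shown, a motif found in 12.1% of upstream sequences. *Tgfa* held GC boxes at −126 to −121 and −15 to −10, and 32.7% of upstream sequences hold one. None of the 3 held the AP-1 letters, which occur in 6.75%. Of the other members searched, *Epgn* also held a TATA box, at −86 to −81, and *Erbb2* held none of the motifs. *Egfr* held a GC box at −9 to −4, and *Lrig1* held 2, at −162 to −157 and −71 to −66. These matches describe the letters and were not tested for function. *Ereg*, *Hbegf* and *Nrg1* were not examined for motifs.

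Among genes of the pathway around these members, calls were found in both directions. Over 8 lists of 67 other genes, 6 were called in GFPhigh cells, 7 in GFPlow cells and 54 in neither. The shares over all genes compared were 5.9% and 5.54%, but 60 of the 67 reached 5 FPKM in at least 1 population. Of the 10760 compared genes at that level, 1020 and 958 were called. The median log2(FPKM + 1) difference of the 67 genes was −0.03. The other ligand genes were low in both populations: *Egf* had 1.18 and 1.30 FPKM, *Nrg2* 0.52 and 0.44, *Nrg4* 0.16 and 0.18, and *Nrg3* 0.05 and 0.01.

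Among 8 genes for ligand shedding, *Adam17*, the main protease for *Areg*, *Hbegf* and *Tgfa* products, had 48.7 FPKM in GFPhigh cells and 44.7 FPKM in GFPlow cells. *Adam10*, which acts on betacellulin and EGF, had 72.6 and 76.0 FPKM. *Adam15* was highest, with 377 and 282 FPKM. The iRhom genes, whose products carry ADAM17 to the cell surface, were expressed in both populations (*Rhbdf1*, 121 and 145 FPKM; *Rhbdf2*, 16.6 and 11.4 FPKM). Of the 8, *Adam9* (21.1 and 37.2 FPKM) and *Adam19* (0.66 and 9.42 FPKM) were enriched in GFPlow cells. *Adam12*, at 0.14 and 3.79 FPKM, was under the minimum.

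Connective tissue and glial genes differed in the same direction as *Adam19*. Of 11 fibroblast genes, all were higher in GFPlow cells, 8 by the rule, with a summed 579 FPKM in GFPhigh cells and 2948 FPKM in GFPlow cells. Of 8 Schwann lineage genes, all were higher in GFPlow cells, 7 by the rule, with a summed 8.31 and 232 FPKM. No gene of either list was at 0, and *Sox10* had 0.51 and 42.7 FPKM. The part of these cells in the values of *Adam19*, *Nrg1* and *Erbb3* was not tested, and in sorted bulk samples fewer cells of a type cannot be told apart from less RNA per cell.

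Of 16 adaptor and Ras-MAPK genes, which carry the signal inside the cell, none was called in either direction, where 5.9% and 5.54% of all genes were called. Each of the 16 reached 5 FPKM in both libraries, and of all 10016 such genes 777 were called in GFPhigh cells and 633 in GFPlow cells. The ratios ran from 0.801 for *Sos2* to 1.31 for *Map2k1*. *Hras* was highest, with 480 FPKM in GFPhigh cells and 445 FPKM in GFPlow cells, and the ERK gene *Mapk3* had 228 and 174 FPKM. Of 11 genes of the PI3K, PLC-gamma and STAT branches, 1 was called, *Pik3cb* (10.1 and 6.47 FPKM, ratio 1.57), and *Akt1* was highest, with 280 and 316 FPKM. None of the 8 genes of receptor attenuation was called, with ratios from 0.679 to 1.36. *Errfi1*, an inhibitor of EGFR that the pathway itself induces, was the highest of them, with 134 FPKM in GFPhigh cells and 99.1 FPKM in GFPlow cells.

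ERK feedback and response genes were called in both directions. By the same rule, 1020 and 958 of the 10760 compared genes at 5 FPKM or more in at least 1 population were called. Of 8 feedback inhibitors, *Dusp5* (39.9 and 14.8 FPKM, ratio 2.69), *Spry1* (123 and 60.9 FPKM, ratio 2.01) and *Dusp4* (7.4 and 4.71 FPKM, ratio 1.57) were enriched in GFPhigh cells. *Spred1* (20.5 and 40.5 FPKM) was enriched in GFPlow cells. Of 10 ERK-responsive genes, *Fosl1* (103 and 47.2 FPKM, ratio 2.19) and *Phlda1* (67.2 and 43.1 FPKM, ratio 1.56) were enriched in GFPhigh cells. *Etv4* (15.9 and 62.5 FPKM), *Ccnd1* (44.9 and 139.8 FPKM), *Etv5* (11.2 and 17.8 FPKM) and *Egr1* (1314 and 1972 FPKM) were enriched in GFPlow cells, *Egr1* only just past 1.5-fold. *Fos*, the highest of the list, had 2589 and 2588 FPKM. *Etv4* and *Etv5* are also known to respond to FGF signaling, and the early response genes of this list respond to dissociation as well, so these genes do not read EGF receptors alone.

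**Figure D4:**
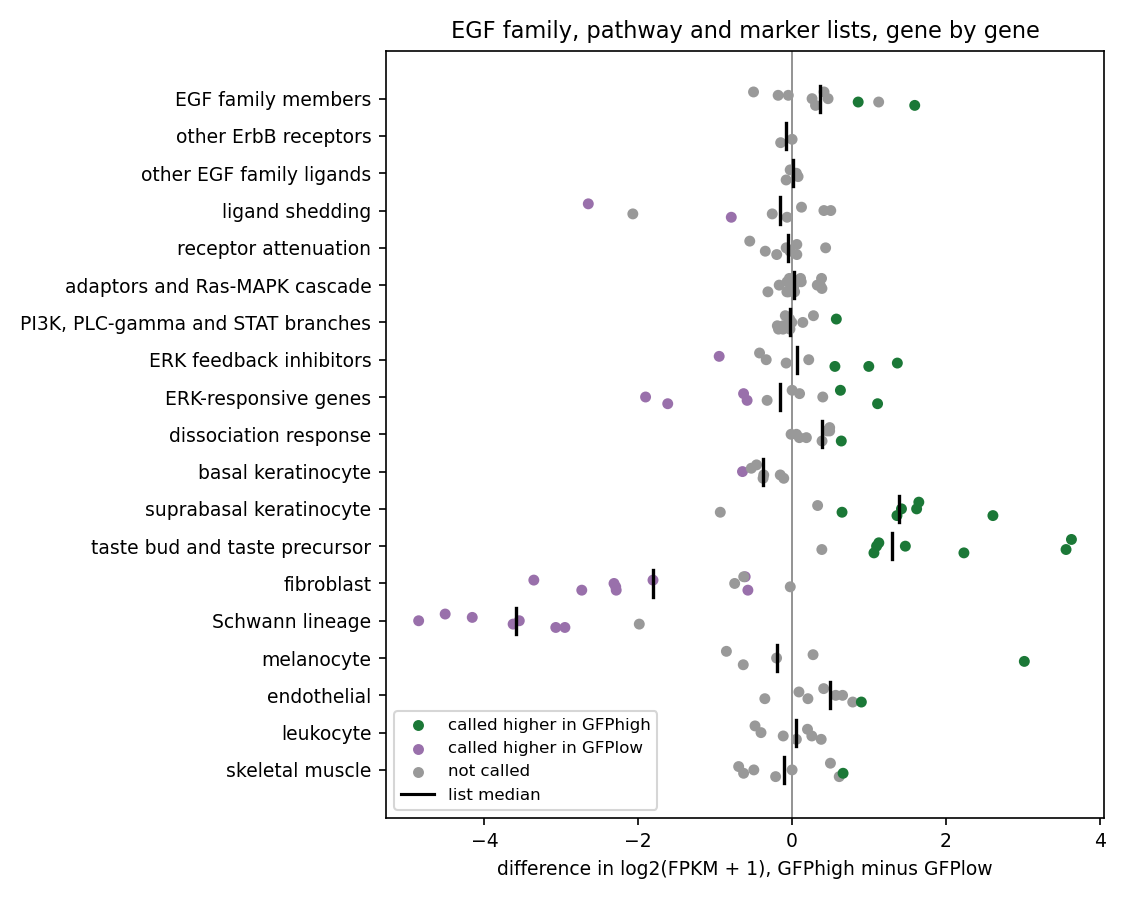
Difference in log2(FPKM + 1), GFPhigh minus GFPlow, for each gene of the EGF family, pathway and marker lists (points; vertical jitter only separates them), colored by the call, with the list median as a bar. The EGF family median is 0.36 and the Ras-MAPK median is near 0, whereas the fibroblast and Schwann lineage medians lie far to the GFPlow side.

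Keratinocyte genes of the upper layers and taste genes differed in the same direction as *Areg* and *Hbegf*. Of 8 suprabasal genes, 7 were higher in GFPhigh cells and 6 were called there, with a summed 48774 FPKM in GFPhigh cells and 14191 FPKM in GFPlow cells. The highest was *Krt13*, with 30523 and 9738 FPKM, and *Ivl* was the exception, with 0.67 and 2.19 FPKM. Of 8 genes of taste buds and their precursors, all were higher in GFPhigh cells and 7 were called, with a summed 566 and 179 FPKM. *Lrmp* was highest in GFPhigh cells (257 and 19.8 FPKM), *Krt18* was highest in GFPlow cells (99.4 and 75.8 FPKM), and *Shh* had 20.7 and 0.84 FPKM. Several of these taste genes were picked by the study from the same libraries. The part of either cell type in the *Areg* and *Hbegf* ratios was not tested.

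Markers of other cells were low. Melanocyte genes other than *Mitf* (17.2 and 1.24 FPKM) reached at most 1.09 FPKM, with *Tyr* listed at 0 in both libraries and *Mlana* at 0 in GFPhigh cells. Of 8 endothelial genes, 7 were higher in GFPhigh cells, with a summed 38.1 and 27.9 FPKM, but only 2 reached 5 FPKM in either population. Of the 8, 1, *Pecam1* (5.31 and 2.38 FPKM), was called in GFPhigh cells, and *Egfl7* was highest, with 18.5 and 15.9 FPKM. The part of endothelial cells in the *Areg* and *Hbegf* ratios was not tested. Of the 7 leukocyte genes in the table none was called, *Ptprc* had 0.06 and 0.02 FPKM, *Cd52* was listed at 0 in GFPlow cells, and *Cd68* was highest, with 14.0 and 15.3 FPKM. Skeletal muscle genes reached at most 8.58 FPKM, and 1 of 8, *Tnnt3* (8.58 and 5.05 FPKM), was called in GFPhigh cells. Only 2 of these 8 reached 5 FPKM in either population. For these and the marker lists above, the shares over all genes compared were 5.9% in GFPhigh cells and 5.54% in GFPlow cells. Of the 10760 compared genes at 5 FPKM or more in at least 1 population, 1020 and 958 were called.

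The labels give about 75000000 reads per library, whereas the steps between low FPKM fitted best at about 26500000 reads in GFPhigh cells and 35750000 reads in GFPlow cells. Only 54.9% and 49.2% of the low values tested lay within 0.15 of a whole read, at depths chosen to make that share largest, so these depths are approximate and no read counts were recovered. At these depths the lowest values of the set, those of *Btc* and *Ereg*, would rest on about 420 and 240 reads in GFPhigh cells and 176 and 236 in GFPlow cells. At most 4.09% of the 50-nt windows of a member's transcripts also occur in transcripts of another gene, the highest share being that of *Nrg1*. Among the called pathway genes, counting either strand, the share was 52.6% for *Fosl1*, 29.3% for *Phlda1*, 24.5% for *Etv5*, 21.8% for *Spry1*, 21.6% for *Ccnd1* and 20.5% for *Dusp5*, whose FPKM are uncertain for this reason. Such shares were not computed for the dissociation and marker lists, *Hspa1a* and *Hspa1b* among them. Genes on the opposite strand overlap exons of *Erbb2*, *Ereg*, *Tgfa*, *Nrg1* and *Lrig1* by at most 4.66% of the member's exon bases. The libraries were stranded, but whether strand was used for the FPKM is not given in the sources used here.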

How the data were processed

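RNA of SOX2-GFPhigh and SOX2-GFPlow cells, 1 library each, was sequenced as single-end reads of 50 nt. The authors trimmed reads with Trimmomatic 0.36, mapped them to mm10 with GSNAP and ran Cufflinks 2.2.1. FPKM were deposited with 2 decimals, in columns named means, and each was read as the value of 1 library. Tools are those of the submitters' processing notes. A further deposited column holds the authors' fold changes and was not used.

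The 21 entries that GENCODE M21 (GRCm38, the build of mm10) does not type as protein-coding, though it lists them, were dropped, as was any comparison with a missing value. Cells without a number were found in 7 entries for GFPhigh and 14 for GFPlow. Ratios were taken from FPKM without a pseudocount, and log2 differences with 1 FPKM added. The call rule was 5 FPKM and 1.5-fold. No test was run, because each population has 1 library and FPKM are not counts.

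Members and gene lists were chosen with earlier results of these data known. All members are named, with the called genes (at most the 4 with the largest ratios) and the highest gene of each list; others were named after their values were seen. Depth was sought from low FPKM of genes with 1 transcript and 400 to 2500 nt of exons, less 200 nt. Promoters are RefSeq's, and 7 of 10 members were matched to 1 each. Alternatives were TPM, scaling to the median ratio, pseudocounts, other FPKM minimums and 2-fold. The script that makes the calls was checked on simulated data without noise, which checks its arithmetic only. Python 3.11.15 and pandas 2.3.3 were used.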

Additional observations from a re-analysis of the deposited data

How the results depend on the processing

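The direction of every member's ratio and the calls of *Areg* and *Hbegf* held under TPM, scaling to the median ratio (0.973) and 1 or 0.1 FPKM added. Ratios ranged from 3.02 to 3.39 for *Areg*, 1.71 to 1.88 for *Hbegf* and 2.18 to 3.31 for *Btc*. On the TPM scale 1 member, *Tgfa*, was enriched in GFPlow cells (0.647) instead of 0, where the calls over all genes were 807 in GFPhigh and 1219 in GFPlow cells, and at 2-fold 1 member instead of 2 was enriched in GFPhigh cells, *Areg* alone. Minimums of 1 FPKM or none gave 3, with *Btc*. The median over the members ranged from 0.28 to 0.43. Over all genes, TPM lowered every ratio by 0.10 on the log2 scale (−0.10), and the share of calls on the GFPhigh side fell from 51.6% to 39.8%. Counts of GFPhigh and GFPlow calls were 1020 and 958 as deposited, 777 and 633 with 5 FPKM in both, 1541 and 1563 with 1 FPKM, 3136 and 3250 with no minimum, and 448 and 467 at 2-fold. No paired analysis was possible because each population has 1 library. With 1 library per population the spread between replicates is unknown, and differences near 1.5-fold, such as those of *Tgfa* and *Lrig1*, cannot be placed against it.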
